A study of Mus musculus with 48 samples.

Results

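Among the 18 cells of the AEC group with at least 200000 reads, 3 cells, AEC11, AEC19 and AEC20, held little *Cdh5* and *Kdr*, and these 3, chosen by the measured values of that pair of genes, were set against the other 15. *Cdh5* encodes VE-cadherin, the adhesion protein of endothelial junctions, and *Kdr* encodes the main VEGF receptor of endothelial cells. A cell was chosen when both genes lay under 0.5 reads per 10000 reads of the cell. Just inside that limit, AEC11 had *Cdh5* at 0.238 and *Kdr* at 0.145, AEC20 had 0.234 and 0.0657, and AEC19 had 0.119 and 0.106. Just outside it, AEC6 had *Cdh5* at 0.898 and *Kdr* at 0.658, and AEC18 had 1.51 and 0.599. In the other 15 cells *Cdh5* ranged from 0.898 to 19.03 with a median of 10.2.

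The series holds 48 single cells, 24 of a group called AEC and 24 of a group called HEC, taken by cell sorting from the aorta-gonad-mesonephros region of wild-type C57 mice at embryonic day 10 and read as full-length cDNA on a nanopore instrument. AEC commonly stands for arterial endothelial cells and HEC for hemogenic endothelial cells, the source of the first blood stem cells; the labels spell out neither name, and the sources used here do not give the sort markers. No treatment, transgene or mutant allele is named for either group. The labels tie no cell to an animal, so the cells of a group counted as 1 sample: no test was run, and an SD describes the spread between cells. Because the 3 cells were chosen from measured values of the same libraries, all their gene and isoform levels are given as a description.

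The aorta of the embryo is an endothelial tube that gathers mural cells around it. Smooth muscle cells and pericytes share the receptor gene *Pdgfrb*, and smooth muscle cells add actin, myosin and calponin genes of the contractile apparatus. Fibroblasts and other mesenchymal cells make the fibrillar collagens of the wall. Endothelial cells carry none of these sets at high level and are known instead by junction, VEGF and angiopoietin receptor genes.

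The 3 cells were not shallow. AEC11 had 2144891 reads, AEC19 had 756347 and AEC20 had 1368859, against 377443 to 4883854 in the other 15 cells. After thinning to 200000 reads, AEC11 had 7248 genes above 0, AEC19 had 6355 and AEC20 had 5936, against 5429 to 8557 with a median of 6412 in the others. Values below are reads per 10000 reads of the cell unless named otherwise. They count full-length cDNA reads and are not divided by transcript length. A value of 0 allows a level of up to 0.0140 in AEC11, 0.0397 in AEC19 and 0.0219 in AEC20, the worth of 3 reads. Reads copied by PCR share a source molecule, so these limits and all intervals cover counting error only.

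The first question was whether the 3 cells lacked other endothelial genes too. Of 22 endothelial marker genes beside *Cdh5* and *Kdr*, 21 were at least 4-fold lower in the 3 cells than in the other 15, against 8.32% of the 8581 genes that averaged 0.1 or more across the 18 cells. For 10 of the 22, each of the 3 cells lay below each of the other 15 cells, against 0.536% of those genes. *Pecam1*, an adhesion receptor of endothelial junctions, had 0.149 in AEC11, 0.0926 in AEC19 and 0.117 in AEC20, against 0.482 to 12.6 with a median of 5.03 in the others. *Cldn5*, a tight junction gene, had 0.168, 0.212 and 0.139 in AEC11, AEC19 and AEC20, against 0.438 to 22.8 with a median of 8.90. The log2 ratio of the means, with 0.1 added to each mean, was -4.57 for *Pecam1* and -5.07 for *Cldn5*. For both genes the 2 sets of cells did not overlap.

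The arterial connexin gene *Gja4* had the lowest ratio of all 3383 genes with a mean of at least 0.5. It had 0.210 in AEC11, 0.159 in AEC19 and 0.248 in AEC20, against 1.02 to 34.5 with a median of 11.3 in the other cells, a log2 ratio of -5.59. *Gja5*, the second arterial connexin gene, had 0.476, 0.357 and 0.446 in the same 3 cells, against 2.19 to 36.4 with a median of 11.8. *Vwf*, the von Willebrand factor gene, had 0.387, 0.370 and 0.365, against 1.96 to 34.3 with a median of 12.3. The 3 cells were alike in these low values, which came to 1.41% of the mean of the other cells for *Gja4*, 2.82% for *Gja5* and 2.68% for *Vwf*. The genes with the next lowest ratios were *Cd34* (-5.01), *Col18a1* (-4.86), *Ptprb* (-4.82), *Ctsh* (-4.79), *Rgs2* (-4.67), *Efna1* (-4.66), *Icam2* (-4.58) and *Cd93* (-4.57). *Col18a1* encodes a basement membrane collagen, and *Ptprb* an endothelial tyrosine phosphatase.

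The 3 cells were not all equally free of endothelial and arterial genes. AEC19 kept 4 endothelial genes at 1 or more: *Egfl7* at 3.19, *Eng* at 1.59, *Ecscr* at 1.52 and *Plvap* at 1.11. AEC11 and AEC20 kept 0. The summed level of the endothelial list was 4.69 in AEC11, 12.1 in AEC19 and 3.996 in AEC20, against 22.4 to 196 with a median of 127 in the others. This sum includes *Cdh5* and *Kdr*, so it partly restates the choice of the cells. Of the arterial list, AEC11 kept 6 genes at 1 or more, among them the axon guidance receptor gene *Unc5b* at 4.24, the Notch effector gene *Hey1* at 2.71 and the ephrin gene *Efnb2* at 2.11. AEC19 kept *Jag1*, a Notch ligand gene, at 2.74, *Notch1* at 2.45 and *Nrp1* at 1.77. AEC20 kept 0. Arterial sums were 15.9 in AEC11, 9.45 in AEC19 and 1.62 in AEC20, against 5.06 to 92.9 with a median of 57.9. On this list AEC11 and AEC19 overlapped the others, of which only AEC6, at 5.06, had a lower sum. *Dll4*, an arterial Notch ligand gene, was low in all 3 cells, at 0.0420, 0.0132 and 0.00731, against 0 to 6.98 with a median of 1.17.

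Contractile genes were the first set that stood above in the 3 cells. Of the 18 genes of the smooth muscle list, 16 had a mean of at least 0.1, and 12 of these were at least 4-fold higher in the 3 cells, against 3.47% of the 8581 genes at that minimum. A gene can pass this minimum through the 3 cells alone and is then higher there by construction, as *Lmod1* and *Des* were, so the count supports nothing by itself. Of the 16, 9 also averaged 0.1 or more in the other 15 cells alone, and 5 of these 9 were at least 4-fold higher, a count made after the values had been seen. For 9 of the 16, each of the 3 cells lay above each other cell, against 1.14% of the 8581 genes, a count with the same limit. *Acta2* (ENSMUSG00000035783) encodes smooth muscle actin and had 56.8 in AEC11, 69.2 in AEC19 and 122 in AEC20, against 0.469 to 4.55 with a median of 0.987 in the other 15 cells, a log2 ratio of 5.65. *Myl9*, the regulatory light chain of smooth muscle myosin, had 29.7, 13.6 and 28.2 in AEC11, AEC19 and AEC20, against 0.169 to 6.04 with a median of 0.299. *Cnn1*, the gene of calponin, had 6.96, 4.16 and 6.37, against 0.0245 to 1.67 with a median of 0.0702. The sets did not overlap for any of the 3 genes. The highest of the other 15 cells for *Myl9* and *Cnn1* was AEC16, which had *Cdh5* at 10.4.

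**Figure D1:**
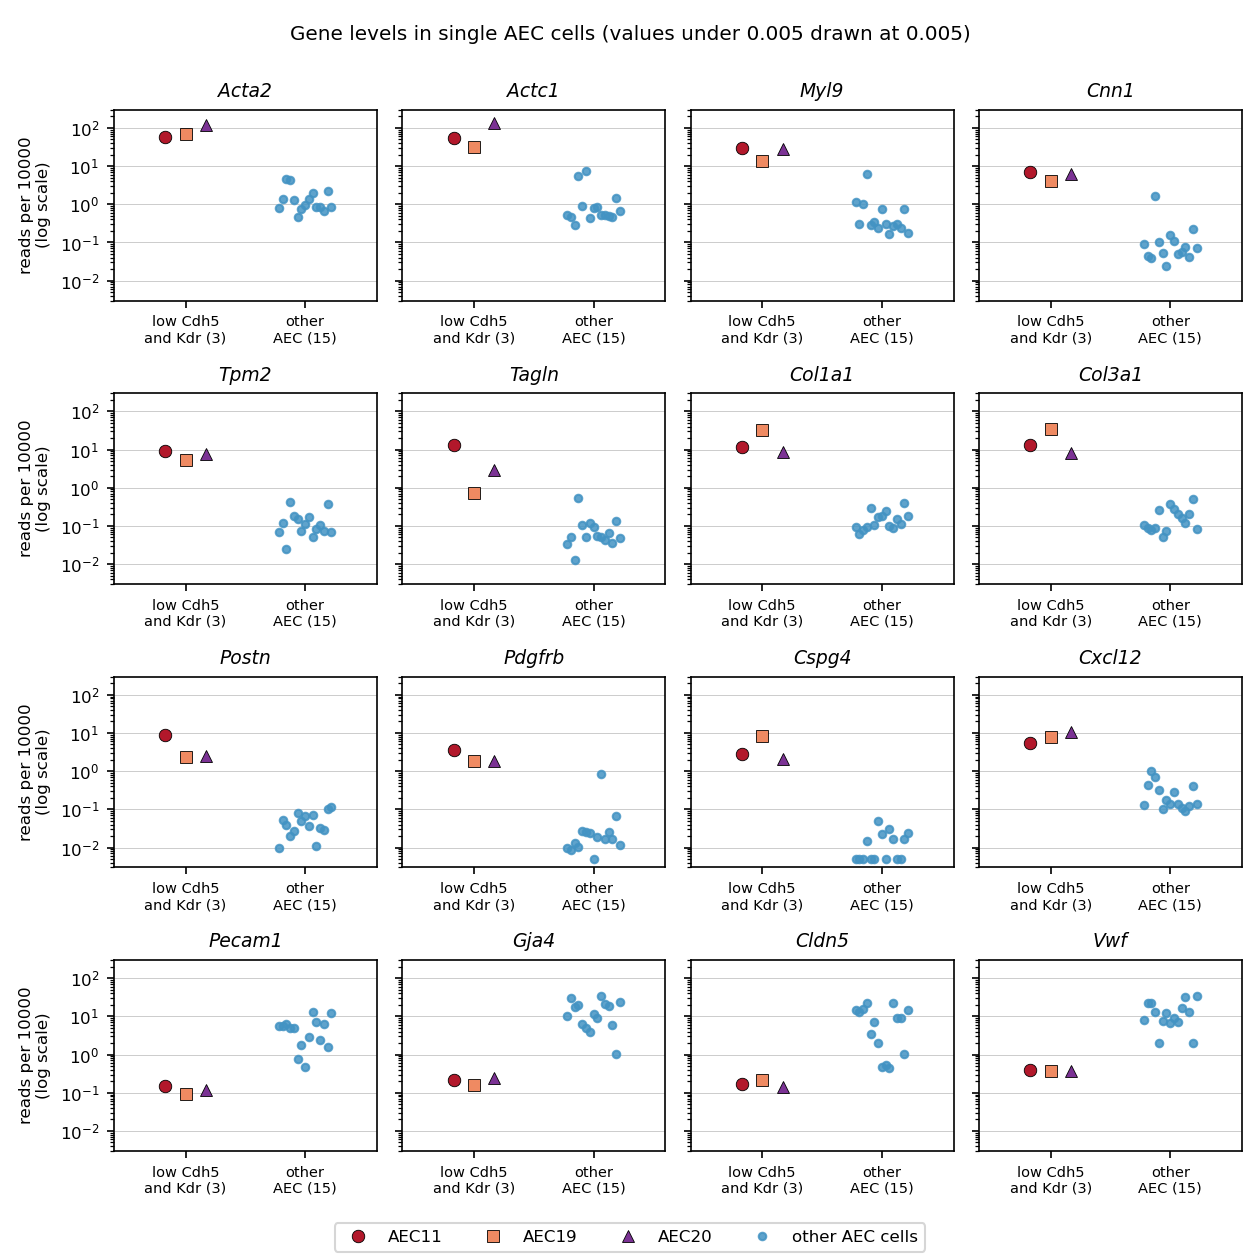
Levels of 16 genes in the 3 cells with little *Cdh5* and *Kdr* (left in each panel, a symbol per cell) and in the other 15 AEC cells (right), in reads per 10000 reads of the cell on a log axis; values under 0.005 are drawn at 0.005. For 12 contractile, matrix and mural genes each of the 3 cells lies above each other cell, as *Acta2* at 56.8 to 122 against 0.469 to 4.55, and for the 4 endothelial genes in the bottom row each lies below.

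The smooth muscle list summed to 187 in AEC11, 119 in AEC19 and 229 in AEC20, against 4.48 to 19.9 with a median of 10.9 in the others. The tropomyosin genes *Tpm1* and *Tpm2* were part of this, with *Tpm1* at 33.5, 13.9 and 33.1 in AEC11, AEC19 and AEC20, against 0.296 to 4.40, and *Tpm2* at 9.19, 5.46 and 7.82, against 0.0255 to 0.428. *Tagln*, the gene of the actin binding protein SM22, varied widely, with 13.4 in AEC11, 0.740 in AEC19 and 2.96 in AEC20, against 0.0128 to 0.529. *Ppp1r14a*, an inhibitor of myosin phosphatase, had 3.57, 0.833 and 7.65, against 0.0151 to 0.212. *Actg2*, the enteric smooth muscle actin gene, had 6.53, 0.793 and 2.21, against 0 to 0.132. In each of these 5 genes AEC19 was the lowest of the 3 cells and still above each other cell. *Des*, the intermediate filament gene of muscle, had 1.89, 0.172 and 1.52, against 0 to 0.0230.

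Late markers of smooth muscle were not shared. *Myh11*, the smooth muscle myosin heavy chain, had 5.48 in AEC20 but 0.0559 in AEC11 and 0.0264 in AEC19, against 0 to 1.08 in the other cells. *Lmod1*, a gene of actin filament assembly in smooth muscle, had 1.42 in AEC20, 0.625 in AEC11 and 0 in AEC19, and was at 0 in each of the other 15 cells. *Myocd*, the coactivator that drives contractile genes, had 1.12 in AEC19, 0.359 in AEC11 and 0.0219 in AEC20, against 0 to 0.184. *Smtn*, the smoothelin gene, was not higher, with 0.373, 0.0397 and 0.0146 in AEC11, AEC19 and AEC20, against 0.0459 to 1.81 elsewhere. *Mylk*, which encodes myosin light chain kinase, was at 0.807, 0 and 0, and *Itga8* and *Synpo2* were at 0 in all 18 cells.

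*Actc1* (ENSMUSG00000068614), which encodes the actin of heart muscle, had 54.5 in AEC11, 31.4 in AEC19 and 135 in AEC20. In the other 15 cells it ranged from 0.281 to 7.65 with a median of 0.538, and the log2 ratio was 5.58. Its exact Poisson 95% interval in AEC19, where it was lowest of the 3, ran from 30.1 to 32.7. The actin genes are close in sequence, and reads could have been split between *Actc1*, *Acta2* and *Actg2*, so single actin levels are uncertain. The highest *Actc1* of the other 15 cells was in AEC18, where *Acta2* was at 0.469, so there *Actc1* did not track *Acta2*. Of the genes that would go with heart muscle, *Tnnt2*, *Nppa*, *Ttn*, *Myl4*, *Pln* and *Tnnc1* were at 0 in all 3 cells, and *Myl7* reached 0.00466 in AEC11. *Tbx20*, a transcription factor gene of the heart, had 0.233, 3.08 and 0.979 in AEC11, AEC19 and AEC20, against 0 to 0.00614. *Mef2c*, a muscle and endothelial transcription factor gene, had 7.10, 1.12 and 0.687, against 0.0435 to 3.18. Of the skeletal muscle list, *Myog*, *Pax3*, *Mylpf* and *Acta1* were at 0 in all 3 cells.

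Many contractile genes are known targets of serum response factor, which binds the CArG box, so the starts of the genes that stood above were searched for it on both strands. The window was the 300 bases around each gene's start, most of them before it, in a RefSeq promoter table of GRCm38.p6. Of the 45 genes for which each of the 3 cells lay above each other cell, 38 had a promoter in that table, and 5 of these (13.2%) held a CArG box: *Actc1*, *Myl9*, *Myl6*, *Fermt2* and *Meg3*. The share was 1.66% over 2646 compared genes with a promoter and 1.81% over all 27025. Of the smooth muscle list, 14 genes had a promoter and 1 (7.14%) held the box. Of the 27 such genes that lay below, 0 held one. The promoters of *Actc1* and *Myl9*, the pair with the highest log2 ratios of the 5, are printed with the box in capitals. A match is a run of letters and not a shown binding site, and the search was chosen after the gene levels had been seen.
Actc1 promoter, chr2:114052826-114053125, minus strand, box at -47: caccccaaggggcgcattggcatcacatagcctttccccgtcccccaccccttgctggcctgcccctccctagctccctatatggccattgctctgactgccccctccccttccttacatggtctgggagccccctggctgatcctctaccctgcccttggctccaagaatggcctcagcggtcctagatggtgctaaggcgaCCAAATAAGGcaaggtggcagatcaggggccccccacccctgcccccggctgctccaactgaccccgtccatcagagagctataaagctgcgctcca
Myl9 promoter, chr2:156775214-156775513, plus strand, box at -161: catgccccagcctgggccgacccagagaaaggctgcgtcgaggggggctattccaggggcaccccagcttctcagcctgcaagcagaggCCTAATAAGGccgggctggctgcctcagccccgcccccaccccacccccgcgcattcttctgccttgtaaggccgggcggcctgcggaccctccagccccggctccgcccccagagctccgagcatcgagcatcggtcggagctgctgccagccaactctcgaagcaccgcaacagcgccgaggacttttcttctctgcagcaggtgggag

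Fibrillar collagen and matrix genes were the second set. *Col1a1* (ENSMUSG00000001506, mm10 chromosome 11, 94936224 to 94953042) encodes the main chain of type I collagen and had the highest log2 ratio of all compared genes, 6.13. It had 11.7 in AEC11, 33.3 in AEC19 and 8.69 in AEC20, from 2514, 2515 and 1189 reads, against 0.0609 to 0.389 with a median of 0.113 in the other 15 cells. *Col3a1* (ENSMUSG00000026043, chromosome 1, 45311538 to 45349706), the gene of type III collagen, had 12.9, 34.0 and 8.15 in the same 3 cells, against 0.0521 to 0.515, a log2 ratio of 6.05. *Postn*, a matrix protein gene of fibroblasts and valve mesenchyme, had 8.60, 2.31 and 2.54, against 0.00985 to 0.117, a log2 ratio of 4.94. AEC19 was highest of the 3 for both collagens, and AEC11 for *Postn*. *Col1a2*, the partner chain of *Col1a1*, had 1.00, 6.69 and 2.78, against 0.0128 to 0.448. No cell of the other 15 reached the 3 cells in these 4 genes.

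Of the 32 genes of the matrix list, 21 had a mean of at least 0.1, and 9 of these were at least 4-fold higher in the 3 cells while 0 were 4-fold lower, beside 3.47% and 8.32% of the 8581 genes at that minimum. Some of the 9, such as *Col6a1*, *Col6a2* and *Postn*, passed this minimum through the 3 cells alone, so this count too supports nothing by itself. The proteoglycan gene *Vcan* had 2.76, 2.86 and 2.36 in AEC11, AEC19 and AEC20, against 0 to 0.350, and *Col6a1*, a chain of type VI collagen, had 1.15, 0.899 and 1.77, against 0 to 0.0459. Matrix genes that the other 15 cells also held did not set the 3 apart. *Fn1*, fibronectin, had 22.4, 13.7 and 14.1, against 2.87 to 62.5, and *Sparc* had 16.3, 10.3 and 12.9, against 1.56 to 30.3. The summed list overlapped, with 98.04 in AEC11, 135 in AEC19 and 64.3 in AEC20, against 10.2 to 92.3 with a median of 49.4. Some matrix genes were found in 1 of the 3 cells: *Lum*, the gene of the collagen binding proteoglycan lumican, had 0.606 in AEC11 and 0 in AEC19 and AEC20, against 0 to 0.00870 in the others, and *Mfap5*, a microfibril gene, had 0.942 in AEC20 and 0 in AEC11 and AEC19, against 0 to 0.0187. *Lox*, a collagen crosslinking enzyme gene, was at 0 in all 18 cells. *Eln*, the elastin gene of the arterial wall, had 0 in AEC11 and AEC19 and 0.0511 in AEC20.

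**Figure D2:**
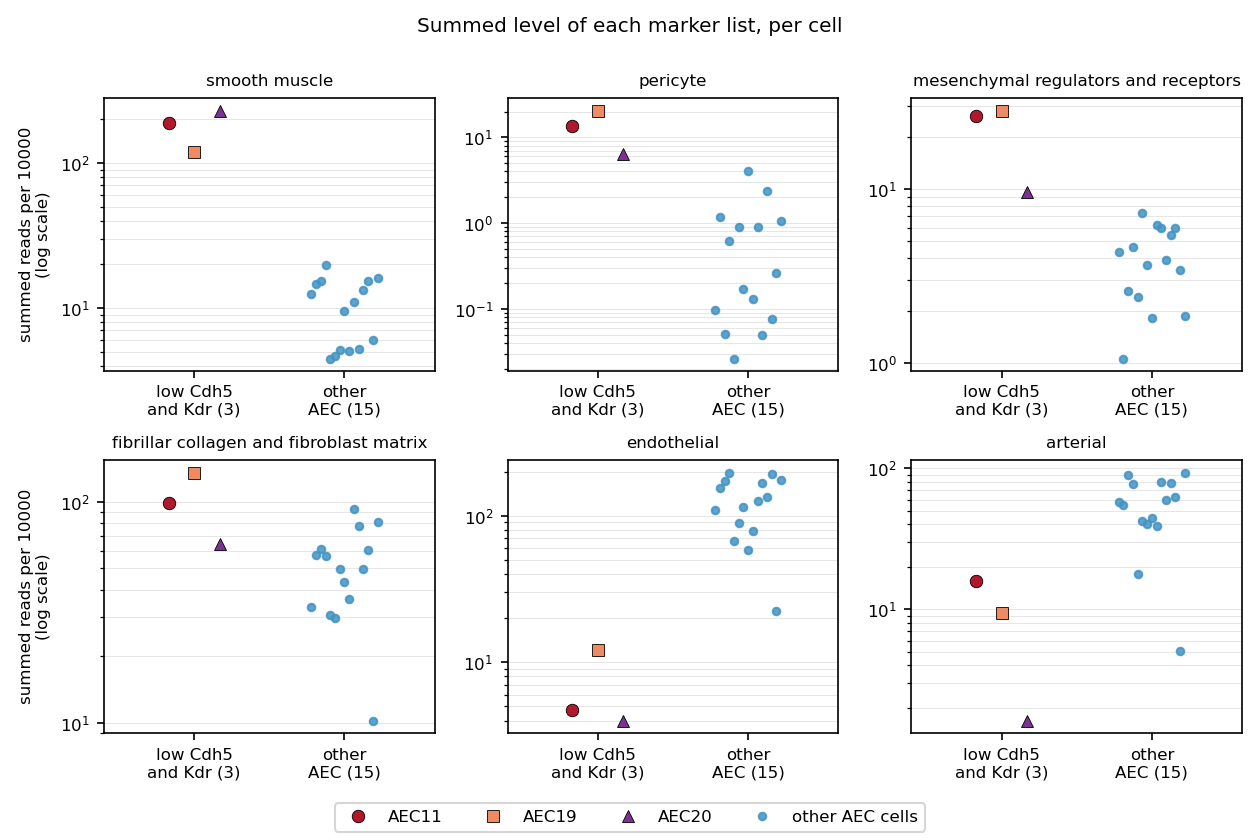
Summed levels of 6 marker lists in reads per 10000 reads of the cell, on log axes, in the 3 cells with little *Cdh5* and *Kdr* (left) and the other 15 AEC cells (right). The smooth muscle sums of 119 to 229 lie above the highest other cell at 19.9, the pericyte and mesenchymal sums also lie above, the endothelial sums of 3.996 to 12.1 lie below, and the matrix and arterial sums overlap. The endothelial sums include *Cdh5* and *Kdr*, which chose the cells.

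Pericyte genes were high as well, but differed between the cells. *Pdgfrb* had 3.53 in AEC11, 1.82 in AEC19 and 1.86 in AEC20, against 0 to 0.827 with a median of 0.0165. *Cspg4*, the gene of the pericyte surface proteoglycan NG2, had 2.79, 8.18 and 2.05, against 0 to 0.0489, a log2 ratio of 5.31. Its reads lay on transcripts annotated as retaining an intron, Cspg4-204 with 100% in AEC11, 85.3% in AEC19 and 91.5% in AEC20, and the full protein-coding transcript held 1.45% in AEC19 and 0 in the other 2. *Rgs5*, a pericyte signaling gene, had 3.21 in AEC11 but 0.0132 in AEC19 and 0.0292 in AEC20. *Vtn*, vitronectin, had 4.55 in AEC19 but 0.173 in AEC11 and 0.0219 in AEC20. The Notch target gene *Heyl* had 1.96 in AEC11 and 3.50 in AEC19 but 0.00731 in AEC20, against 0 to 0.304 in the other 15 cells. *Notch3*, the Notch receptor of mural cells, had 0.755, 2.25 and 0.679, within the range of 0 to 4.02 of the others. The pericyte list summed to 13.4, 20.4 and 6.45 in AEC11, AEC19 and AEC20, against 0.0265 to 4.09 with a median of 0.263.

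Mesenchymal transcription factor and receptor genes were partly shared. Found in all 3 cells were *Prrx2*, a homeobox gene of mesenchyme, at 1.88, 2.84 and 1.27, against 0 to 0.0230, and *Snai2*, a repressor of epithelial genes, at 1.17, 2.63 and 1.29, against 0 to 0.126. *Dlk1*, an imprinted gene of embryonic mesenchyme, had 2.26, 11.6 and 1.26, against 0 to 0.212. *Foxc2*, a transcription factor gene of mesoderm and vessels, overlapped, with 1.66, 1.55 and 1.29, against 0.0245 to 5.16. *Pdgfra*, the receptor gene that marks fibroblast precursors, was low in all 3 cells, with 0.0186, 0.0132 and 0.146, against 0 to 0.0629. *Tbx18*, *Foxf1*, *Tcf21*, *Meox1*, *Meox2* and *Hand2* were at 0 in all 3 cells.

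AEC11 held the nuclear receptor gene *Nr2f2* at 3.59, against 0.0793 in AEC19 and 0.0438 in AEC20, and the homeobox genes *Hoxc9* at 2.21 and *Prrx1* at 1.22, the second of which AEC20 also held, at 0.774. It also had the microtubule protein gene *Map1b* at 11.4 and the keratin gene *Krt19* at 1.42. AEC19 held the forkhead gene *Foxd1* at 1.93, which was at 0 in AEC11 and AEC20, as well as *Foxc1* at 1.996, *Hoxa7* at 3.49. *Hoxb7* at 1.34 in AEC19 lay within the range of 0 to 1.38 of the other 15 cells. AEC20 held no Hox gene at 1 or more, and stood out with *Hbegf*, a growth factor gene, at 8.61, *Csrp1*, a LIM protein gene of smooth muscle, at 14.4, *Pdlim7* at 14.95 and *Tgfb3* at 2.22. With 1 cell each, none of these differences between the 3 cells has a replicate.

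**Figure D3:**
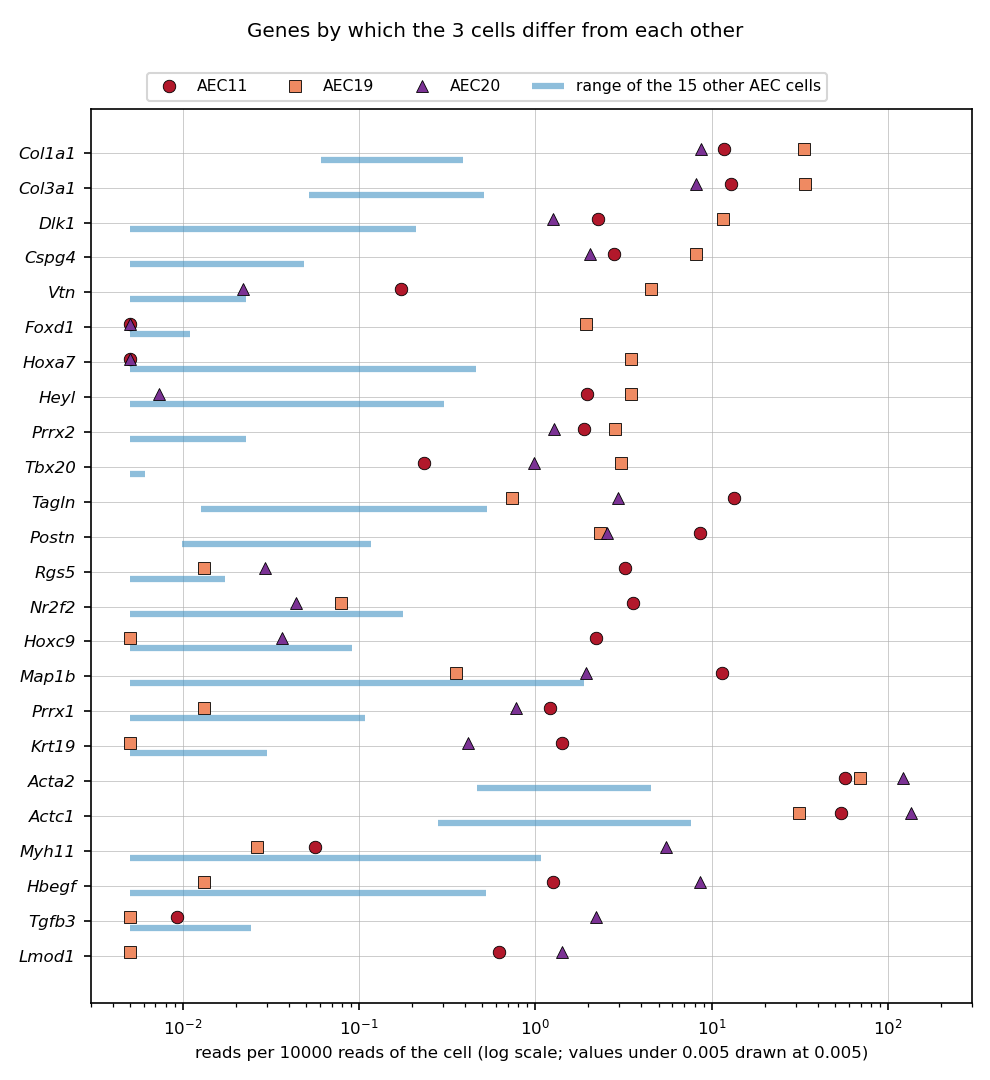
Levels of 24 genes by which AEC11, AEC19 and AEC20 (symbols) differ from each other, with the range of the 15 other AEC cells as a bar below them, in reads per 10000 reads of the cell on a log axis; values under 0.005 are drawn at 0.005. AEC19 is highest for *Col1a1*, *Dlk1* and *Vtn*, AEC11 for *Tagln*, *Rgs5* and *Nr2f2*, and AEC20 for *Actc1*, *Myh11* and *Hbegf*.

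Over all 3383 genes with a mean of at least 0.5, 63 (1.86%) were at least 4-fold higher in the 3 cells and 390 (11.5%) at least 4-fold lower. This minimum weighs the sets unequally, because a gene found in the 3 cells alone must average 6 times the minimum there to pass. Each of the 3 cells lay above each other cell for 45 genes (1.33%) and below for 42 (1.24%), and 41 of the 45 and 42 of the 42 were also past 4-fold. Of the 45, 14 were on the smooth muscle, pericyte, matrix or mesenchymal lists, which is 31.1% of the 45, and the same lists held 31 (0.916%) of all 3383 genes compared. Some of the 14, such as *Cspg4* and *Postn*, passed the minimum through the 3 cells alone and are higher there by construction. The lists were also chosen with earlier results of these data known, so this share supports nothing by itself. Outside those lists, and picked after their values were seen, stood genes of the actin cytoskeleton and cell adhesion: *Flna*, filamin A, had 11.2, 16.6 and 7.98 in AEC11, AEC19 and AEC20, against 0.318 to 6.72, *Actn1*, an actin crosslinker, 3.88, 4.34 and 5.88, against 0 to 1.97, and *Myh10*, a nonmuscle myosin, 7.10, 4.47 and 3.49, against 0.0521 to 2.77. The integrin partner genes *Ilk* (log2 ratio 2.88), *Fermt2* (2.79) and *Tns1* (2.27) were in the same 45.

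Of the list of secreted factors of the aortic surroundings, *Cxcl12* and *Bmp4* were among the 45. *Cxcl12*, the chemokine that holds blood stem cells in the marrow, had 5.31, 7.62 and 10.9 in AEC11, AEC19 and AEC20, against 0.0891 to 0.996 with a median of 0.140, a log2 ratio of 4.38. *Bmp4*, a bone morphogenetic protein gene, had 3.87, 2.01 and 7.79, against 0.0199 to 0.831, a log2 ratio of 4.43. On no such list, and also among the 45, were 3 cell surface genes. *Gpc3*, a heparan sulfate proteoglycan gene on the X chromosome, had 11.2, 7.21 and 1.75, against 0.0234 to 0.229, *Lrp1*, a scavenger receptor, 1.096, 5.38 and 4.28, against 0.0128 to 0.120, and the Wnt receptor gene *Fzd7* 6.80, 1.80 and 3.74, against 0 to 0.524. Other factors of the list had levels of their own. *Mdk*, midkine, had 16.3, 11.7 and 9.04 in AEC11, AEC19 and AEC20, against 1.55 to 15.4 with a median of 3.73, and overlapped. *Nog* was at 0 in all 18 cells, *Wnt2* was at 0 in the 3 cells, and *Kitl*, stem cell factor, did not pass 0.0140 in any of them, against a highest value of 1.08 elsewhere. Of 22 such factors found in the files, 13 had a mean of at least 0.1, 2 of these were at least 4-fold higher and 2 at least 4-fold lower, beside 3.47% and 8.32% of the 8581 genes at that minimum. *Tgfb2* also lay above each other cell, with 4.89, 0.463 and 3.19, against 0 to 0.0901, but its mean was under 0.5, so it was not counted among the 45. Some BMP and TGF-beta response genes of endothelial cells were low, with *Acvrl1* at 0.0326, 0.0264 and 0.0657, against a median of 0.848, *Bambi* at a log2 ratio of -3.57 and *Smad7* at -2.82.

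Isoforms were compared as the percent of a gene's value that a transcript takes, in 497 genes seen at 1 or more in each of the 3 cells and in at least 8 others. Of 2023 isoforms, 8 (0.395%) did not overlap between the sets and differed by at least 10 percentage points in the mean; they belonged to *Myl6*, *Tpm1*, *Cbx5* and *Tmed10*. Without a minimum size, 13 (0.643%) did not overlap. *Myl6*, the essential light chain of smooth and nonmuscle myosin, has an alternative exon before its last one, of which the sequence is printed in mm10 coordinates with the stop codon in capitals. The forms with and without it end in different residues. Exon choices within *Myl6* and *Tpm1* were picked for a closer look after the isoform shares had been seen.
Myl6 alternative exon, chr10:128491720-128491764, minus strand: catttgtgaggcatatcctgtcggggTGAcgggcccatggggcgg

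Summed, transcripts with this exon took 89.5% of the *Myl6* value in AEC11, 79.7% in AEC19 and 78.7% in AEC20. In the other 15 AEC cells they took 4.77 to 58.1% with a median of 17.1%, so the sets did not overlap. The mean share was 82.6% ± 5.999 in the 3 cells (SD, n = 3) and 23.9% ± 19.03 in the others (SD, n = 15). In 23 HEC cells the share ran from 5.62 to 57.1% with a median of 30.5%. The level of *Myl6* as a whole was also higher, with 31.6, 27.6 and 40.1 in AEC11, AEC19 and AEC20, against 5.92 to 15.5. The value of the form without the exon was 3.30, 5.59 and 8.25 in the 3 cells, and 3.43 to 12.4 in the others, so that the added level lay on the form with the exon.

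*Tpm1* makes long tropomyosins from the upstream first exon 1a and short ones from the internal first exon 1b. Exon 1a took 99.1% in AEC11, 100% in AEC19 and 99.9% in AEC20, against 12.95 to 87.6% with a median of 35.8% in the 8 other cells with a *Tpm1* value of at least 1. Of the single isoforms, Tpm1-211, which starts with exon 1b, took 0 in all 3 cells and a median of 17.8% in the others. Long tropomyosins then take either exon 2a, known from mature smooth muscle, or exon 2b, used in striated muscle and in most other cells. Both are shown in mm10 coordinates with the 66 of 126 bases that differ between them in capitals.
Tpm1 exon 2a, chr9:67048124-67048249, minus strand: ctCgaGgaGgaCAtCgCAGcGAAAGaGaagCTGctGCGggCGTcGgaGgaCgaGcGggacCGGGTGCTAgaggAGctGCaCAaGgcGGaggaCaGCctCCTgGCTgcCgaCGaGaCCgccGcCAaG
Tpm1 exon 2b, chr9:67047786-67047911, minus strand: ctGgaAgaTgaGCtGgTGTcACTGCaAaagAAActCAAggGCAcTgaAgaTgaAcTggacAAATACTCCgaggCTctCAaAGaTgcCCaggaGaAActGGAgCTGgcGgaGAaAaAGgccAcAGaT

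Exon 2a took 0 of this choice in AEC11 and AEC19 and 5.08% in AEC20, the cell that also had *Myh11*. The other AEC cells with enough long *Tpm1*, 3 in number, had 0. At the other end of the gene, exon 9a, known from striated muscle, took 41.1%, 46.7% and 53.3% in AEC11, AEC19 and AEC20, against 1.59 to 70.5% with a median of 14.6% in 7 other cells, so the sets overlapped. The isoform Tpm1-205, which ends in exon 9a, took 23.8%, 17.6% and 35.2% in the 3 cells, against 0 to 12.7%. *Tpm2* was too low in the other 15 cells for a comparison; its exon 6b took 92.8%, 98.8% and 100% in the 3 cells. The long middle exon of *Cald1*, known from smooth muscle caldesmon, took 6.27%, 0 and 6.76%, against 0 to 6.05% in 11 other cells. The exons known from mature smooth muscle in *Tpm1* and *Cald1* held under 7% of these choices in each of the 3 cells.

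**Figure D4:**
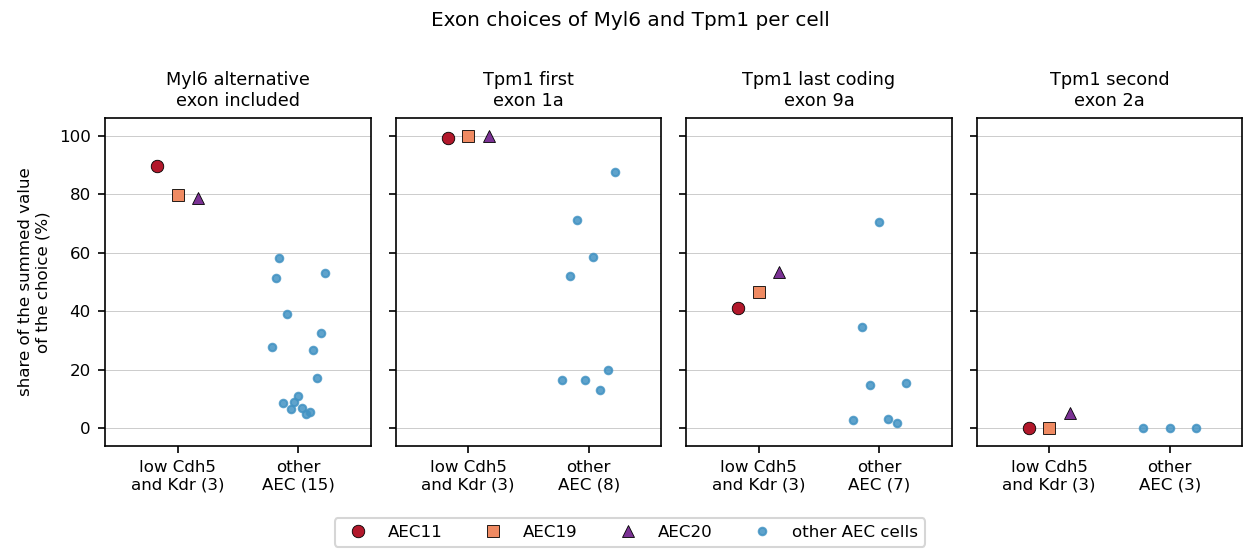
Share, in percent of the summed value of each exon choice, of the *Myl6* alternative exon and of *Tpm1* exons 1a, 9a and 2a in the 3 cells with little *Cdh5* and *Kdr* (left in each panel) and in the other AEC cells with a value of at least 1 for that choice (right, number in parentheses). *Myl6* exon inclusion at 78.7 to 89.5% and exon 1a at 99.1 to 100% lie above the other cells, exon 9a overlaps, and exon 2a is at 0 or 5.08%.

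The remaining isoforms that did not overlap belonged to genes outside the contractile apparatus. Cbx5-203 took 33.2%, 27.0% and 24.7% of the heterochromatin protein gene *Cbx5* in AEC11, AEC19 and AEC20, against 0 to 13.5% in 10 other cells. Tmed10-201 took 99.5 to 99.8% in the 3 cells, against 43.8 to 99.3%, a narrow gap at the top. Srsf2-201, the coding transcript of the splicing factor gene *Srsf2*, took 99.8%, 99.5% and 98.5%, against 20 to 99.9% with a median of 63.7% in 10 others, and overlapped. *Col1a1* and *Actc1* had a single transcript above 0 in the 3 cells. *Postn* differed within the 3: Postn-203 took 98.3% in AEC19 and 48.6% in AEC11 but 0 in AEC20, where Postn-201 took 78.4%.

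Markers of most other cell types were not higher in the 3 cells. *Epcam*, *Ptprc* and *Sox2*, which mark epithelium, leukocytes and neural progenitors, were at 0 in all 3 cells, and *Wt1*, a coelomic and mesothelial gene, did not pass 0.0132. *Nes*, an intermediate filament gene of neural progenitors that other young cells also use, had 1.83, 2.71 and 1.18 in AEC11, AEC19 and AEC20, against 0.0245 to 1.48, and *Fabp7*, a fatty acid binding protein gene, had 0.513, 0.899 and 0.577, against 0 to 0.0245. No gene of the gonadal, nephric, neuronal, epithelial, macrophage or megakaryocyte lists reached 1 in any of the 3 cells. The hemogenic list had 1 such gene, *Mecom* at 1.32 in AEC19, and *Runx1* had 0.308, 0.0132 and 0.300, against 0 to 1.75 in the other 15. Some list genes, among them *Nr5a1*, *Pax2* and *Sox10*, were not analysed here. Globin genes were present in all 18 cells, and AEC20 lay just below the others, with *Hba-a2* at 4.85, 5.45 and 4.03 in AEC11, AEC19 and AEC20, against 4.71 to 7.97, and *Hbb-y* at 4.66, 5.09 and 3.85, against 4.07 to 14.9. The part that such RNA shared between cells has in the low endothelial values of the 3 cells was not tested.

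Cell cycle genes separated the 3 cells from each other. G2/M phase genes summed to 30.6 in AEC19, 13.2 in AEC20 and 4.48 in AEC11, against 2.177 to 66.0 with a median of 5.95 in the others. *Top2a*, a topoisomerase of dividing cells, had 8.91 in AEC19, 1.15 in AEC11 and 0.102 in AEC20, and *Ccnb2*, a mitotic cyclin gene, 0.383, 0.0886 and 3.30 in the same order. S phase genes summed to 36.7 in AEC11, 31.8 in AEC19 and 16.6 in AEC20, within the range of 3.52 to 61.5. Imprinted genes of embryonic growth included both genes that differed and genes that did not. *Igf2r* had 4.25, 5.84 and 5.74 in AEC11, AEC19 and AEC20, against 0.0260 to 2.78, *Meg3* had 4.73, 8.61 and 4.67, against 0.0554 to 4.11, and *Peg3* had 19.9, 10.7 and 3.10, against 0.130 to 5.63. *Igf2* had 45.7, 49.8 and 53.8, within the range of 10.8 to 159, and *Plagl1* was low, with a log2 ratio of -3.69.

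The 3 cells were closer to each other than to the rest. Spearman correlations over the 1000 most variable genes, without *Cdh5* and *Kdr*, were 0.375 between AEC11 and AEC19, 0.415 between AEC11 and AEC20 and 0.406 between AEC19 and AEC20. Their medians with the other 15 cells were 0.0637 for AEC11, 0.0831 for AEC19 and 0.0589 for AEC20. The 105 pairs among the other 15 had a median of 0.192 and ran from 0.00488 to 0.414. For each of the 3 cells the most similar of the 15 was AEC6, at 0.213 to 0.279. These are correlations across genes, which are not replicates, between libraries of different depth.

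**Figure D5:**
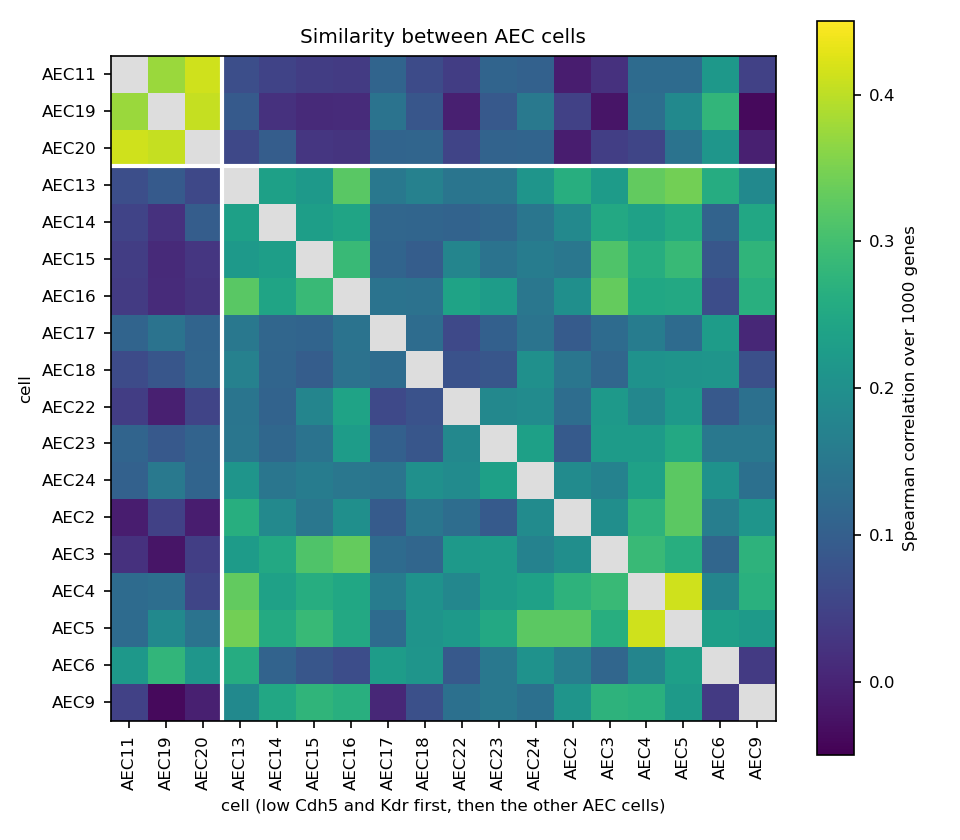
Spearman correlation between each pair of the 18 AEC cells over the 1000 most variable genes, with the 3 cells of little *Cdh5* and *Kdr* first; the diagonal is grey. The 3 pairs among them, at 0.375 to 0.415, are higher than any of their correlations with the other 15 cells, the highest of which is 0.279.

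The 3 cells were also set against the HEC group. Of the 45 genes, 36 were also higher in each of the 3 cells than in each of the 23 HEC cells with at least 200000 reads. Over all 24 HEC cells *Acta2* had a median of 3.01 and a highest value of 31.1, in HEC1, below the 56.8 of AEC11. *Col1a1* did not pass 0.296 in any HEC cell, and *Cspg4* did not pass 0.0397. The low side was less apart: against 22 HEC cells the median log2 ratio was -2.57 for the endothelial list and -0.33 for the arterial list, compared with -4.05 and -1.89 against the 15 AEC cells. Both endothelial medians include *Cdh5* and *Kdr*. In that group, 1 cell met the same limit: HEC20 had *Cdh5* at 0.424 and *Kdr* at 0.120. It had *Col3a1* at 4.99 but *Col1a1* at 0.180, *Acta2* at 3.72, *Actc1* at 0.392 and *Cspg4* at 0.00461. Other genes of HEC20 were above AEC20, with *Dlk1* at 1.81 in HEC20 and *Gpc3* at 3.23, and its mesenchymal list summed to 16.7, against 9.57 in AEC20. Over the deep cells of both groups, the 2 nearest cells of each of AEC11, AEC19 and AEC20 were the other 2, and the next was HEC20, at correlations of 0.268 to 0.291.

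Read by the marker lists, all 3 cells held contractile genes. AEC20 was smooth muscle-like by the number of such genes at 1 or more. By the median of the list AEC11 was higher, and AEC20 had *Mylk* at 0 and *Smtn* at 0.0146. The pericyte sum of AEC20, 6.45, was also above the highest other cell at 4.09. AEC11 and AEC19, with higher pericyte sums than AEC20, are given no single name. Of 18 smooth muscle genes, 11 reached 1 in AEC11, 7 in AEC19 and 13 in AEC20, against 1 to 6 in the other cells. The median log2 ratio of the smooth muscle list was 4.43 in AEC11, 2.38 in AEC19 and 4.06 in AEC20, and that of the pericyte list 3.96, 3.47 and 0.30. Members of both lists, such as *Lmod1* and *Cspg4*, passed the minimum mean through the 3 cells alone. They are higher there by construction, so these medians support no name by themselves. Each cell also had pericyte and fibrillar collagen genes, 4, 5 and 3 of the pericyte list and 15, 16 and 12 of the matrix list, against 0 to 2 and 2 to 9 elsewhere. No endothelial marker reached 1 in AEC11 or AEC20, and 4 did in AEC19, against 6 to 21 in the other cells. That list holds *Cdh5* and *Kdr*, which chose the cells, so this count partly restates the choice. Of the arterial list, 6 genes reached 1 in AEC11, 3 in AEC19 and 0 in AEC20, against 2 to 13 in the other cells. On endothelial genes other than *Cdh5* and *Kdr*, of which 21 of 22 were at least 4-fold lower, the group name did not match the 3 cells. By arterial sums, AEC11 at 15.9 and AEC19 at 9.45 overlapped the others only through AEC6, at 5.06, a cell just outside the limit. The next lowest of the others was AEC17, at 17.8, and for *Gja4* and *Gja5* the sets did not overlap. How the 3 cells came to be in the group was not tested.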

How the data were processed

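Per the labels' protocols, sorted single cells were picked by hand, deformed ones discarded, and their polyA cDNA sequenced on nanopore flow cells. The deposited values are a signal per transcript, reads per 10000 reads of the cell, made by the authors. Per the submitters' processing notes, the tools included minimap2 2.18-r1015 and Salmon 1.1.0 with build mm10; their settings are not stated. A cell's reads were recovered as 10000 divided by its smallest value above 0; 100% of values were whole reads within 0.01 read. Of 52927 transcripts, 52799 matched GENCODE M21 and were summed to genes, 21435 in all with the 128 unmatched ones apart. No 2 of the 18 cells held identical values.

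The log2 ratio is that of the mean over the 3 cells to the mean over the other 15, with 0.1 added to each. Genes compared averaged at least 0.5 over the 18 cells, list members at least 0.1. Called means past 4-fold, or no overlap between the sets. *Cdh5* and *Kdr*, which chose the cells, were left out of the counts over all genes. They stayed in the sums, medians and counts at 1 or more of the endothelial list. Named genes were those of highest and lowest ratio, those above or below in each cell, the top 10 of each of the 3 cells, and members of 29 lists, with a few marker genes named whatever their values. The members and lists were chosen with earlier results of these data known. Scripts were checked on simulated data and run in Python 3.11.15 (pandas 2.3.3, scipy 1.17.1, numpy 2.4.6; figures in matplotlib 3.10.9).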

Additional observations from a re-analysis of the deposited data

Results flagged for a closer look

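Of the 4 genes that marked the 3 cells, *Col1a1*, *Col3a1*, *Postn* and *Actc1*, each was looked up in the cells left out of the comparison, which are 6 AEC cells under 200000 reads and the HEC cells. Values stand out here when they passed the highest of the 15 other AEC cells and the exact Poisson 95% interval lay above it. Among the shallow AEC cells, AEC1, with 14242 reads, had *Actc1* at 50.6 from 72 reads and *Col1a1* at 3.51 from 5 reads, and its *Acta2* was at 14.7. AEC12 had *Col3a1* at 3.23 from 13 reads and *Postn* at 1.49 from 6 reads, and AEC8 had *Postn* at 0.680 from 3 reads. These 3 cells also held *Cdh5*, at 1.40 in AEC1, 1.99 in AEC12 and 1.13 in AEC8, and their levels rest on few reads.

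Among the HEC cells, *Col3a1* was at 4.99 in HEC20 and 1.76 in HEC21, against a highest value of 0.515 in the 15 AEC cells. *Postn* was at 0.996 in HEC12, 0.596 in HEC15 and 0.359 in HEC3, against 0.117. HEC1 had *Actc1* at 9.11, against 7.65, and the highest *Acta2* of the HEC cells, 31.1. HEC20 was the 1 HEC cell with little *Cdh5* and *Kdr*.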

How the results depend on the processing

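Of 2397 values recomputed under other settings, 1764 moved by no more than the spread between cells or, for counts, by at most 1.5 times. A further 626 moved more, and 7 changed sign. A change of sign was looked for only in values that were at least 4-fold as reported, so smaller ratios that turned can be among the 1764 or the 626. No paired analysis was possible because the number of a cell only names it and no result comes from a test. With 0.01 added in place of 0.1, the endothelial median log2 ratio was -4.44 and the mesenchymal one 4.27; with 1 added, 29 genes were at least 4-fold higher and 29 lower, and the medians were -2.18 endothelial, 0.70 mesenchymal, 1.74 smooth muscle and 1.36 pericyte. With medians over cells, 332 genes were 4-fold higher and *Nusap1* was at 0.052. A minimum mean of 0.1 gave 298 higher, 714 lower and 98 above in each cell; a minimum of 2 gave 14, 57, 13 above and 22 below. Leaving out 1 of the 3 cells gave 479 (without AEC20) to 643 genes lower (without AEC11), 62 to 104 below in each cell, 16 to 19 isoforms apart, and an endothelial median of -4.28 (without AEC19) to -4.04. Single genes rested on 1 cell: without AEC20 *Myh11* was at -0.41 (3.93 without AEC19); without AEC19 *Hoxa7* was at -0.50 (3.702 without AEC11), *Foxd1* at -0.015 (3.40) and *Bmp7* at -0.17 (2.51); without AEC11 *Hoxc9* was at -0.020 (3.35 without AEC19). With all AEC cells, 28 genes were above and 18 below in each cell, 2 isoforms were apart, the endothelial median was -3.88 and *Peg3* was at -0.10. Thinned to 200000 reads, 20 genes lay below. Against 22 HEC cells, 172 genes lay below and 57 above, 32 of these shared with the 45, with medians of -2.57 endothelial and -0.33 arterial. Isoforms apart numbered 4 at a gene value of at least 2 and 3 at 25 percentage points or more. The excess of correlation among the 3 cells, 0.32, was 0.18 over all genes compared. Without *Cdh5* and *Kdr*, an alternative added after seeing the data, the endothelial median was -3.89. Median-of-ratios scaling shifted all genes by -0.27 at the median and left 28 of the 45 genes above in each cell. The cause of these changes was not tested. Depth limits zeros: a gene under 3 reads in AEC19 could be as high as 0.0397.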

Other observations

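Of 13 basement membrane genes, 11 had a lower mean in the 3 cells, as most genes did. The median log2 ratio was -1.28 for this list and -0.32 over all genes with a mean of at least 0.1. Of the 13, 2 were at least 4-fold lower, beside 8.32% of the 8581 genes at that minimum. For 1, *Col18a1*, the sets did not overlap, beside 0.536% of those genes. It had 0.261 in AEC11, 0.410 in AEC19 and 0.387 in AEC20, against 1.499 to 26.6 in the other 15 AEC cells. The chains of type IV collagen overlapped. *Col4a1* had 5.95 in AEC11, 15.1 in AEC19 and 2.05 in AEC20, against 0.848 to 21.96 with a median of 8.95 in the other 15 AEC cells, and *Col4a2* had 6.85, 7.39 and 6.82, against 1.46 to 36.4. *Lama4*, a laminin chain of vessel walls, was found in AEC19 at 1.88 and at 0.0186 in AEC11. Genes that respond to cell dissociation were also spread: *Jun* had 1.007, 1.454 and 5.01 in AEC11, AEC19 and AEC20, against 0.196 to 12.03, and *Fos* had 2.41 in AEC20 and under 0.2 in the other 2. The small heat shock protein gene *Hspb1* had 5.33 in AEC19 and 4.88 in AEC20 but 0.0186 in AEC11, against 0.0255 to 1.56.

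Some genes on no list were highest in 1 of the 3 cells. In AEC11 the ubiquitin ligase gene *Pja2* had 7.11, against at most 1.51 in the other 17 cells, and the actin depolymerizing gene *Dstn* had 14.5, with 4.15 in AEC20. AEC19 had *Zwint*, a kinetochore gene, at 9.11, and *Gpx3*, a secreted glutathione peroxidase, at 6.23. AEC20 had *Sh2d3c*, a signaling adaptor gene, at 4.97, against at most 1.89. *Dstn*, *Zwint* and *Gpx3* lay above each of the other 15 cells in all 3, while *Pja2* and *Sh2d3c* did not, so for this pair the value comes from 1 cell.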
